A study of Mus musculus with 9 samples.

Results

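The transcriptome of Gaa knockout quadriceps was set against that of wild-type quadriceps, both from animals injected with PBS only. Libraries were chosen by genotype and treatment as labelled, which gave 3 wild-type libraries (WT_PBS) and 3 knockout libraries (KO_PBS), 6 of the 9 in the series. All animals were male and 18 months old. PBS had been given by tail vein injection when they were 9 months old, and muscle was taken after another 9 months. The labels give the knockout genotype as GAA KO, and the sources used here name neither the allele nor the strain. Poly(A) RNA was sequenced from the whole muscle, so all cell types of the tissue contributed. The remaining 3 libraries come from knockout animals treated with a gene therapy construct (KO_secGAA), and here they only help to estimate the spread between libraries. The labels do not state that each library is a separate animal, so p-values measure the spread between these libraries.

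Gaa encodes acid alpha-glucosidase, the lysosomal enzyme that degrades glycogen, and its loss causes Pompe disease. Glycogen that reaches the lysosome through autophagy cannot then be degraded, and swollen lysosomes and autophagic debris collect within muscle fibres. Fast, glycolytic fibres such as those that make up most of the mouse quadriceps are known to be strongly affected.

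Libraries held 9299156 to 15957106 reads assigned to genes, and the 3 KO_PBS libraries were the shallowest of the 6. Pairwise correlations of log2 values were 0.9692 to 0.9856 over the 6 pairs within a group and 0.9361 to 0.9543 over the 9 pairs between groups. All 12 skeletal muscle fibre markers were measured, of which 1 rose and 4 fell in KO_PBS (median log2 fold change -0.43, and 0.11 with quantile normalization). Of these markers Ckm, the muscle creatine kinase, stood at 34334, 28598 and 33087 normalized counts across WT_PBS and 23062, 20556 and 20027 across KO_PBS. Values are the authors' normalized counts, scaled to library size, which do not account for transcript length, so levels of different genes are not compared. In whole muscle, fewer cells of a type and less RNA per cell of that type cannot be told apart.

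Gaa itself was 296, 129 and 264 normalized counts in WT_PBS and 17.8, 14.5 and 14.02 in KO_PBS. Every KO_PBS library was below every WT_PBS library, which matches the genotype labels. The gene lies on chromosome 11 of GRCm38, and of the 27 tested genes within 1 Mb of it 2 rose and 1 fell. Within 5 Mb, 24 of 155 genes rose (15.5%) and 22 fell (14.2%), beside 11.2% and 11.3% of the 769 genes farther than 20 Mb away on the same chromosome. The nearest gene that rose was Card14, at chr11:119307768-119345375 on the plus strand and 22314 bases from Gaa, which encodes a scaffold protein of NF-kappaB signalling. Card14 stood at 0.377, 0.176 and 0.703 across WT_PBS and 11.3, 10.8 and 6.67 across KO_PBS (adjusted p = 6.0e-05), with 2 reads in 1 WT_PBS library and so no fold. All KO_PBS values lay above all WT_PBS values. Its end overlaps Sgsh on the opposite strand, and since no source states whether counting used the strand, reads of the overlap cannot be assigned with certainty. Sgsh, a lysosomal sulfatase, averaged 6.25 ± 0.519 (SD, n = 3) and 6.799 ± 1.398 (SD, n = 3) (adjusted p = 0.698).

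Across the muscle, 2867 of 13089 tested genes changed at an adjusted p under 0.05 (limma with Benjamini-Hochberg adjustment), 1430 upward and 1437 downward. Thus 10.9% of tested genes rose and 11% fell, which is the background for every list below. At 39.7% of the genes, all 3 KO_PBS values lay on one side of all 3 WT_PBS values. Rises were the larger changes: 570 genes rose and 289 fell at least 2-fold, 126 rose and 49 fell at least 4-fold, and 38 rose and 13 fell at least 8-fold. Folds are ratios on the log2(value + 0.5) scale, which understates the change of low genes. Another 1083 of the called genes moved by less than 1.5-fold.

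Genes that fell were more often abundant ones. With tested genes divided into 5 equal bins by average level, the share that fell was 3.97% in the lowest bin and 22.7% in the highest, whereas the share that rose was 9.24% and 13.1%. Among the 100 most abundant genes 49 fell and 7 rose. Genes that rose held 4.38 to 4.69% of the summed signal in WT_PBS and 9.45 to 9.85% in KO_PBS. Genes that fell held 45.1 to 46.8% in WT_PBS and 35.1 to 35.6% in KO_PBS. The balance of rises and falls depends on the authors' scaling factors: without them the median of all genes moved up by 0.295 on the log2 scale, and 4466 genes rose while 518 fell. Changes are therefore given relative to the bulk of the genes.

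**Figure D1:**
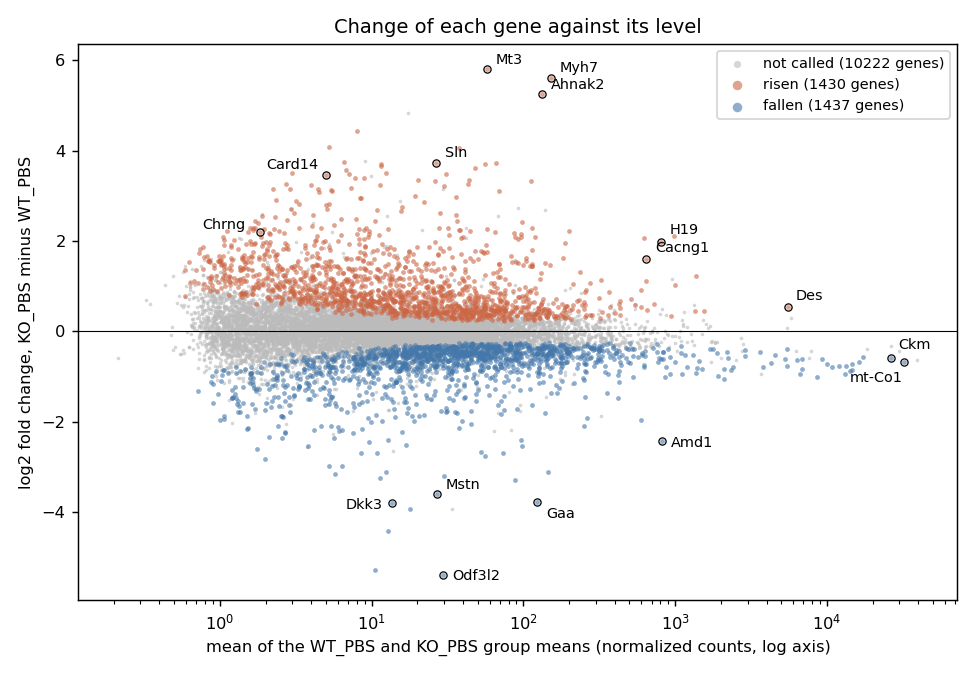
Log2 fold change of KO_PBS against WT_PBS (y axis) against the mean of the group means in normalized counts (x axis, log scale) for the 13089 tested genes, with called genes coloured by direction. The largest rises are at low and middle levels, and falls are most frequent among the most abundant genes (22.7% of the highest of 5 bins).

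Among the largest rises were genes with low signal in wild-type muscle. Prune2 was 6.75, 9.17 and 6.55 in WT_PBS and 111, 97.8 and 102 in KO_PBS, a 13.1-fold rise (adjusted p = 2.3e-06). Dusp4, a phosphatase that acts on MAP kinases, went from 1.06, 1.37 and 1.07 to 14.2, 25.5 and 26.1 (13.02-fold, adjusted p = 2.4e-05). Osbpl3, an oxysterol-binding-related lipid transfer protein, went from 0.925, 2.07 and 0.851 to 17.3, 18.6 and 28.9 (12.7-fold, adjusted p = 6.2e-05). The largest rises and falls named here were chosen only among called genes whose groups did not overlap. The separation of the groups in these genes follows from that choice. Rrad, a small GTPase-like protein that binds calcium channel beta subunits, rose 12.3-fold (adjusted p = 9.6e-04), from 6.204, 8.75 and 2.998 to 51.8, 173 and 44.1. KO_PBS library 2 was well above the rest for Rrad.

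The 15 largest falls of that choice, which include Gaa, also took in Odf3l2, Kcnab1 (log2 fold change -4.43), Dkk3 (-3.80) and Mstn (-3.60), the growth inhibitor myostatin. Odf3l2 was 125.4, 7.83 and 42.75 in WT_PBS and 0.7502, 0.2758 and 0.1379 in KO_PBS (adjusted p = 0.00225). It was at or under 3 reads in KO_PBS libraries 2 and 3, so no fold is given. Its call was lost with limma voom on the recovered reads. Slc15a5, a member of a peptide transporter family, went from 13.5, 27.4 and 27.2 to 1.86, 2.33 and 2.07 (log2 fold change -3.10, adjusted p = 5.5e-05). Neto2, an auxiliary subunit of glutamate receptors, went from 13.3, 8.396 and 7.59 to 0.6198, 0.6698 and 1.06 (log2 fold change -2.97, adjusted p = 5.2e-05). Gdap1, a protein of the mitochondrial outer membrane, went from 20.1, 10.9 and 14.6 to 2.58, 0.985 and 2.34 (log2 fold change -2.69, adjusted p = 2.7e-04). None of these 3 genes overlapped between groups, which was a condition of the choice. Hr, a nuclear corepressor, was 163, 97.3 and 117 in WT_PBS and 41.6, 13.7 and 11.1 in KO_PBS (log2 fold change -2.69, adjusted p = 0.00307). KO_PBS library 1 was the highest of its group for Hr.

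By gain in normalized counts rather than fold, the leading called genes were Des, Eef1a1, Neat1, H19 and Hspb7. Eef1a1, the translation elongation factor whose place is taken by its paralog Eef1a2 in mature muscle, stood at 443, 359 and 313 across WT_PBS and 1403, 1612 and 1757 across KO_PBS (4.304-fold, adjusted p = 7.6e-05). Eef1a2, looked up after the Eef1a1 values were seen, was 2015, 1946 and 2045 in WT_PBS and 1571, 1678 and 1325 in KO_PBS (log2 fold change -0.40, adjusted p = 0.0263). Both paralogs separated the groups, in opposite directions, although similar sequences could share reads. The Eef1a2 call was lost without scaling factors, with quantile normalization, and without WT_PBS library 3 or KO_PBS library 3. Neat1, the long noncoding RNA that builds nuclear paraspeckles, was 926, 819.6 and 731 in WT_PBS and 2038, 1682 and 2064 in KO_PBS (2.34-fold, adjusted p = 0.00174). Losses by counts were led by mitochondrially encoded mRNAs and fast-fibre genes, described below.

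Members of 51 gene lists were counted next, 929 tested genes in all. In the lists, 364 genes were called. Counts and medians are descriptions, and the median log2 fold change of all tested genes was 0.01. Without scaling factors the medians of 13 lists turned from negative to positive, and this is given beside a list where its median is printed.

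**Figure D2:**
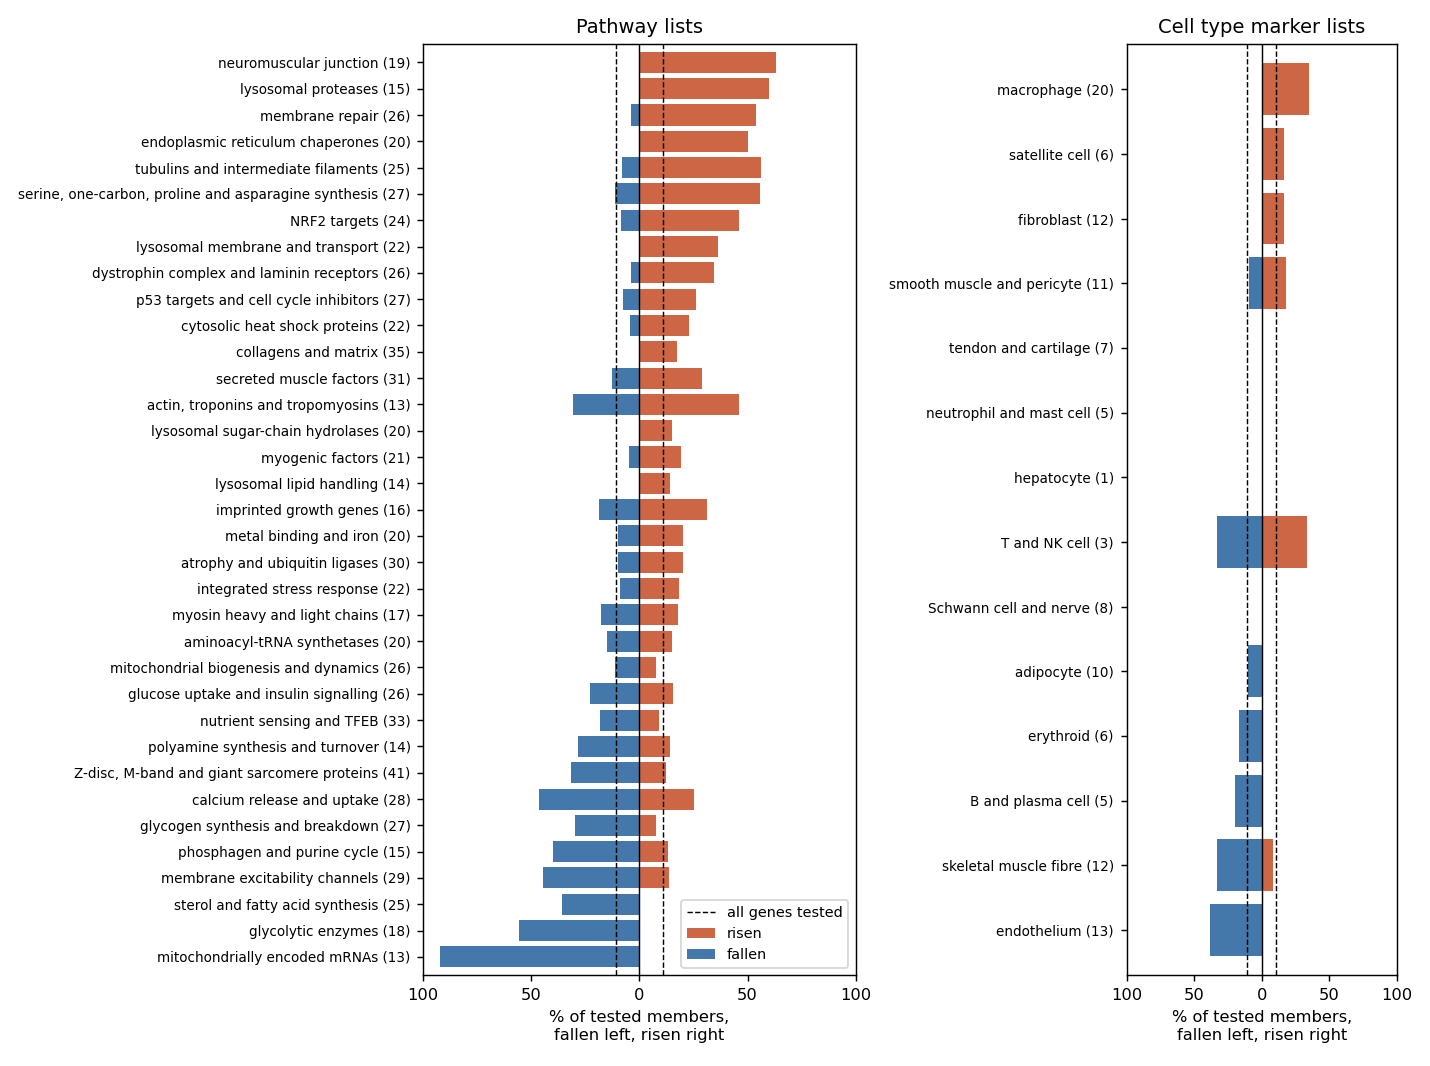
Percent of the tested members of each list (number in parentheses) that rose (bars to the right) and fell (bars to the left) in KO_PBS against WT_PBS at an adjusted p under 0.05, with dashed lines at the 10.9% and 11% of all tested genes. Neuromuscular junction genes have 12 rises and 0 falls of 19, and glycolytic enzymes 0 rises and 10 falls of 18.

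Glycogen enzymes moved in both directions. Of 27 glycogen genes, 8 fell and 2 rose (median log2 fold change -0.28). Without scaling factors 5 fell and 8 rose (median 0.04), and with quantile normalization 7 fell and 3 rose (-0.18). Gbe1, the branching enzyme, was 59.4, 92.99 and 62.4 in WT_PBS and 215, 171 and 226 in KO_PBS, a 2.88-fold rise (adjusted p = 4.6e-04). All 3 KO_PBS values lay above the WT_PBS range, and the call held under all 19 alternatives of processing. Here and below, a call is said to hold under all 19 alternatives if no alternative that tested the gene lost it. A filter of 5 or more in at least 3 libraries left some genes of low level untested. Stbd1, which tethers glycogen to membranes for delivery to lysosomes, was 59.3, 79.1 and 78.4 in WT_PBS and 114, 89.8 and 111 in KO_PBS (1.45-fold, adjusted p = 0.0281), and its call was lost without WT_PBS library 1, KO_PBS library 1 or KO_PBS library 3. Pgm2, a phosphoglucomutase that links glycogen to glycolysis, fell by 0.80 on the log2 scale from 1753, 1249 and 1550 to 888, 788 and 923 (adjusted p = 0.00345). Its groups did not overlap. Gys1, the muscle glycogen synthase, was 419.9, 438 and 518 in WT_PBS and 425, 356 and 353 in KO_PBS with overlapping groups (adjusted p = 0.0903), and was named after its values were seen.

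No fall was called in 4 lists of lysosomal genes. The share that rose was above the background of 10.9% for proteases and for membrane genes, and near it for the other lists. Of 15 lysosomal proteases and their inhibitors 9 rose and 0 fell (median log2 fold change 0.65), of 22 membrane and transport genes 8 rose and 0 fell (0.23), of 20 hydrolases of sugar chains 3 rose and 0 fell (0.14), and of 14 lipid-handling genes 2 rose and 0 fell (0.27). In the last 2 lists 1 rise each held under all 19 alternatives. Cstb, an inhibitor of cathepsins, was 9.56, 6.99 and 7.07 in WT_PBS and 22.4, 21 and 24.1 in KO_PBS (2.77-fold, adjusted p = 1.2e-04). Ctsa, a carboxypeptidase that also protects other lysosomal enzymes, was 61.5, 49.5 and 60.9 in WT_PBS and 91.9, 92.8 and 91.8 in KO_PBS (1.61-fold, adjusted p = 0.00109). Both genes rose with no overlap and little spread within KO_PBS. The membrane proteins Lamp1 and Lamp2, the latter needed for fusion of autophagosomes with lysosomes, both rose. Lamp1 was 451, 516 and 489 in WT_PBS and 699, 773 and 648 in KO_PBS (1.45-fold, adjusted p = 0.00373), and Lamp2 was 72.9, 65.9 and 68.9 in WT_PBS and 127, 106 and 121 in KO_PBS (1.695-fold, adjusted p = 5.7e-04). Plbd2, a phospholipase-like protein of the lysosomal lumen, was 45.4, 45.6 and 46.97 in WT_PBS and 68.9, 68.5 and 70.8 in KO_PBS (1.503-fold, adjusted p = 0.00156). Among the sugar hydrolases Galns rose 2.04-fold (adjusted p = 0.0336), a call lost when any of the 6 libraries was left out.

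Lysosomal promoters often carry the CLEAR element, which transcription factors of the TFEB family bind. Promoter windows from 250 bases before to 50 after the RefSeq start (GRCm38.p6) were found for 9748 of 12999 tested symbols, and the letters TCACGTG on either strand, which also hold the E-box CACGTG, occurred in 7.02% of these genes. They occurred in 3 of the 12 proteases with a window, all among the 7 that rose (Ctsa, Ctsd and Lgmn). A gene with more than 1 window counted if any of them matched. Ctsa and Lgmn each also had a window without a match. In the membrane and transport list they occurred in 5 of 18, of which 1 rose (Lamp1), and in the sugar hydrolases in 4 of 14, none of them called. The sequences below were printed because these genes rose and carry the letters, in capitals, and Lamp1 carries 4 matches within 120 bases. They are read on the gene's strand from chr8:13159041-13159160 (plus), chr7:142387908-142387937 (minus) and chr12:102439124-102439153 (minus). A match shows the letters only, and no binding was measured. Ctsd, the aspartic protease cathepsin D, was 844, 819 and 843 in WT_PBS and 1115, 1055 and 997 in KO_PBS (1.26-fold, adjusted p = 0.0367), a call lost when any of the 6 libraries was left out. Lgmn, an asparaginyl endopeptidase, was 30.7, 34.6 and 33.3 in WT_PBS and 68.4, 89.1 and 79.6 in KO_PBS (2.37-fold, adjusted p = 9.6e-05), without overlap.
Lamp1: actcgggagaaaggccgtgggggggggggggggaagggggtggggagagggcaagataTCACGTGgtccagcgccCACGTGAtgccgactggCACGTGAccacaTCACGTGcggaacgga
Ctsd: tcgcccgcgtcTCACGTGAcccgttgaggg
Lgmn: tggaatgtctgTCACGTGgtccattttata

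In the list of nutrient sensing and TFEB 3 of 33 genes rose and 6 fell (median log2 fold change 0.01), but without scaling factors 16 rose and 1 fell (median 0.32). All 3 rises and 1 of the 6 falls held under all 19 alternatives. Tfe3, which shares the CLEAR element with Tfeb, was 9.02, 9.66 and 9.73 in WT_PBS and 12.4, 16.3 and 13.9 in KO_PBS (1.47-fold, adjusted p = 0.00933), whereas Tfeb was 108, 94.5 and 109 in WT_PBS and 76.3, 78.8 and 70.01 in KO_PBS (log2 fold change -0.47, adjusted p = 0.00438). Neither gene overlapped between groups, but the Tfeb call was lost without scaling factors. Subunits of AMP-activated protein kinase, the cell's energy sensor, also moved apart. The catalytic subunit Prkaa1 was 12.2, 14.8 and 16.5 in WT_PBS and 24.6, 29.1 and 26.5 in KO_PBS (1.83-fold, adjusted p = 0.00112), and the beta subunit Prkab2 fell by 1.07 on the log2 scale from 402, 285 and 340.1 to 148, 154 and 184 (adjusted p = 0.00144). Both subunits had groups that did not overlap, and both calls held under all 19 alternatives.

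The cytoskeleton around the myofibrils held frequent rises. Of 25 tubulins, microtubule-associated proteins and intermediate filament genes 14 rose and 2 fell, with a median log2 fold change of 0.79, and 13 of the 14 rises held under all 19 alternatives. Map1a, which binds microtubules, was 11.2, 14.7 and 16.5 in WT_PBS and 128, 122 and 123 in KO_PBS (8.63-fold, adjusted p = 1.4e-05). Map1b, its relative in growing neurites, was 13.1, 9.45 and 9.29 in WT_PBS and 60.2, 48.98 and 50.5 in KO_PBS (4.87-fold, adjusted p = 2.3e-05). Tubb6, a beta-tubulin of regenerating fibres, was 23.1, 26.3 and 21.4 in WT_PBS and 78.7, 108 and 84.6 in KO_PBS (3.75-fold, adjusted p = 3.3e-05). For each of the 3 genes every KO_PBS library was far above every WT_PBS library. Tuba8, an alpha-tubulin enriched in mature muscle, fell by 0.88 on the log2 scale from 317, 323 and 342 to 176, 202 and 158 (adjusted p = 0.00172), although related tubulin genes could share reads.

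Sarcomere genes were called in both directions. Of 41 genes of the Z-disc, the M-band and the giant proteins 5 rose and 13 fell (median log2 fold change -0.06). Without scaling factors 11 rose and 2 fell (median 0.25), and with quantile normalization 8 rose and 4 fell (0.13). Des, the muscle intermediate filament that links Z-discs, had the largest gain in counts of the called genes with a symbol. It was 4622, 4334 and 4599 in WT_PBS and 6972, 7152 and 5657 in KO_PBS (1.45-fold, adjusted p = 0.0182), and the call was lost without WT_PBS library 3 or KO_PBS library 1 or 2. Klhl40, which stabilises thin filament proteins, was 176, 168 and 188 in WT_PBS and 257, 357 and 253 in KO_PBS (1.61-fold, adjusted p = 0.0107). Ldb3, a Z-disc protein also called cypher, fell by 0.66 on the log2 scale from 1697, 1754 and 1798 to 1149, 1143 and 1036 (adjusted p = 0.00179). No value of Ldb3 or Klhl40 overlapped between groups, and both calls held under all 19 alternatives.

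In the actin, troponin and tropomyosin list 6 of 13 genes rose and 4 fell, but the falls depended on the scaling: 6 rose and 1 fell without scaling factors, and 7 rose and 0 fell with quantile normalization. Of these calls, 1 rise and 0 falls held under all 19 alternatives. In the myosin list 3 of 17 rose and 3 fell. Myh3, the embryonic myosin heavy chain, was 2.02, 2.71 and 4.48 in WT_PBS and 15.8, 7.998 and 8.04 in KO_PBS (3.09-fold, adjusted p = 0.01). Tnnt2, the troponin T of heart and of embryonic muscle, was 2.85, 3.69 and 2.702 in WT_PBS and 20.1, 9.496 and 18.9 in KO_PBS (4.47-fold, adjusted p = 0.0031). Both rose without overlap. Mylk2, the kinase of skeletal myosin light chains, fell by 0.93 on the log2 scale from 1675, 1241 and 1481 to 852, 753 and 688 (adjusted p = 0.00148). The falls of the abundant fast thin filament genes Tpm1 (log2 fold change -0.69, adjusted p = 0.0248), Tnnt3 (-0.56, adjusted p = 0.0441) and Tnni2 (-0.61, adjusted p = 0.0216) became positive differences, none called, with quantile normalization. These 3 calls were also lost without scaling factors and without WT_PBS library 3, KO_PBS library 2 or KO_PBS library 3.

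Genes of the neuromuscular junction rose or were not called. Of 19 tested, 12 rose and 0 fell (median log2 fold change 0.80), and 11 of the rises held under all 19 alternatives. Chrnd, the delta subunit of the acetylcholine receptor, was 1.75, 2.002 and 0.999 in WT_PBS and 16.7, 23.2 and 30.4 in KO_PBS (11.4-fold, adjusted p = 1.1e-04). Chrna1, the alpha subunit that binds acetylcholine, was 15.3, 12.5 and 14.9 in WT_PBS and 64.9, 43.5 and 81.3 in KO_PBS (4.201-fold, adjusted p = 1.9e-04). Both subunits rose in every KO_PBS library. Another 3 genes were singled out after their values were seen: Chrng, the gamma subunit of fetal receptors, Chrne, the epsilon subunit that replaces it in the adult, and Musk, the receptor kinase that clusters receptors. Chrng, at 1 to 4 reads in the WT_PBS libraries, was 0.103, 0.316 and 0.333 in WT_PBS and 3.69, 1.06 and 5.47 in KO_PBS (adjusted p = 0.00662), so no fold is given. Chrne was 16.4, 11.2 and 16.6 in WT_PBS and 11.8, 9.57 and 16.7 in KO_PBS with overlapping groups (log2 fold change -0.22, adjusted p = 0.504). Musk was 6.89, 2.85 and 4.63 in WT_PBS and 16.8, 13.04 and 9.42 in KO_PBS (2.64-fold, adjusted p = 0.0065).

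Channels that set the excitability of the fibre fell more often than they rose, with 13 falls and 4 rises of 29 (median log2 fold change -0.18), but without scaling factors 5 fell and 7 rose (median 0.14). All 4 rises and 5 of the 13 falls held under all 19 alternatives. Kcnn3, a small-conductance calcium-activated potassium channel found on denervated and immature fibres, was 0.583, 1.23 and 1.07 in WT_PBS and 14.2, 13.9 and 15.4 in KO_PBS (10.5-fold, adjusted p = 5.5e-05). Abcc8, the sulfonylurea receptor subunit of ATP-sensitive potassium channels, was 2.64, 2.56 and 2.33 in WT_PBS and 6.95, 8.79 and 9.33 in KO_PBS (2.92-fold, adjusted p = 1.9e-04). Scn4b, a sodium channel beta subunit, fell by 0.89 on the log2 scale from 285, 322 and 404 to 177, 192 and 172 (adjusted p = 0.00212). All 3 separated the groups and held under all 19 alternatives. Scn4a, the pore of the muscle sodium channel, was 314, 311 and 323 in WT_PBS and 164, 183 and 238 in KO_PBS (log2 fold change -0.71, adjusted p = 0.00522), and its call was lost without scaling factors.

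Genes of calcium release and uptake were called in both directions. Of 28 genes 7 rose and 13 fell (median log2 fold change -0.27). Without scaling factors 11 rose and 4 fell (median 0.05), and with quantile normalization 7 rose and 6 fell (-0.07). Subunits of the voltage sensor that triggers contraction were among the rises. Cacng1, its gamma subunit, was 391, 236 and 349 in WT_PBS and 1055, 989 and 861 in KO_PBS (3.03-fold, adjusted p = 6.2e-04), and Cacnb1, its beta subunit, was 171, 183 and 187 in WT_PBS and 331, 323 and 334 in KO_PBS (1.82-fold, adjusted p = 5.7e-04). Stac3, which couples the voltage sensor to calcium release, fell by 0.81 on the log2 scale from 265, 284 and 308 to 142, 170.3 and 178 (adjusted p = 8.3e-04). Mrln, the micropeptide myoregulin that inhibits the calcium pump, fell by 1.76 from 85.2, 58.98 and 67.2 to 18.2, 22.4 and 20.3 (adjusted p = 5.6e-04). Pln, another inhibitor of that pump, was 0.583, 1.65 and 1.52 in WT_PBS and 4.47, 3.74 and 3.36 in KO_PBS (2.59-fold, adjusted p = 0.00678) and was named after its values were seen. Jph1, which holds the T-tubule to the sarcoplasmic reticulum, fell by 0.70 from 333, 292 and 313 to 196, 187 and 195 (adjusted p = 9.3e-04). None of these genes overlapped between groups.

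**Figure D3:**
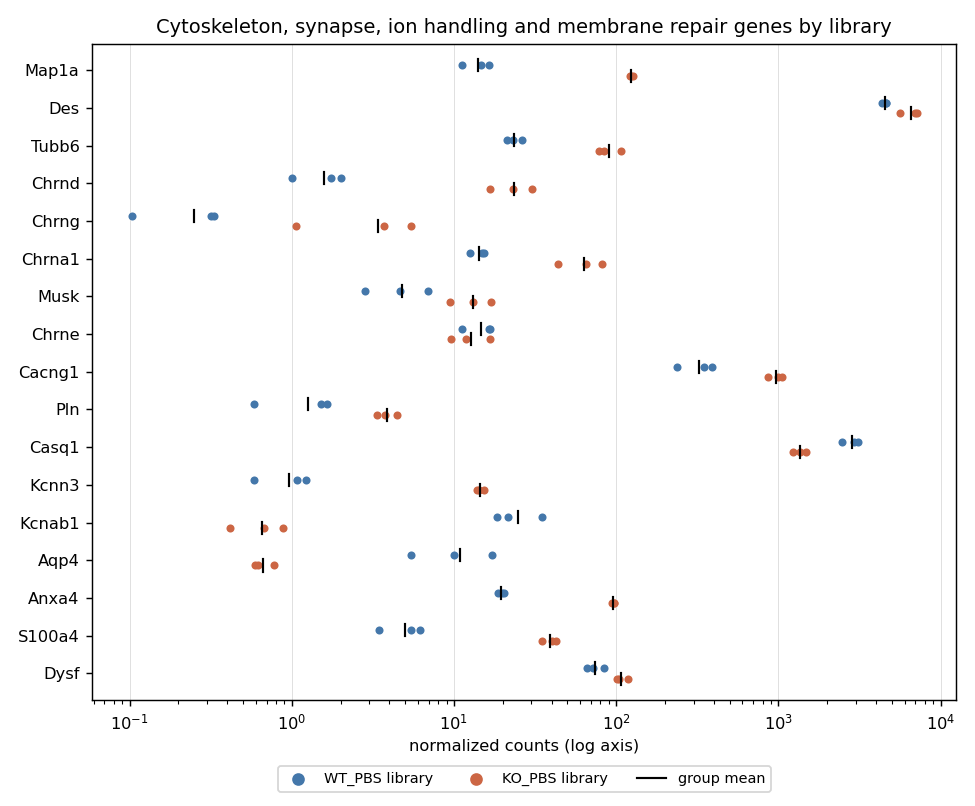
Normalized counts on a log axis in each WT_PBS and KO_PBS library for genes of the cytoskeleton, the neuromuscular junction, excitability, calcium handling and membrane repair, with a bar at each group mean. Chrna1, Map1a and Anxa4 separate the groups, whereas Chrne overlaps.

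Membrane repair genes, which reseal torn sarcolemma, rose in 14 of 26 cases and fell in 1, with a median log2 fold change of 0.54. Anxa4, a calcium-dependent membrane-binding annexin, was 20.4, 18.6 and 19.8 in WT_PBS and 96.5, 97.4 and 94.2 in KO_PBS (4.81-fold, adjusted p = 2.0e-06), with very little spread in either group. Anxa8, of the same family, was 2.02, 1.3 and 1.81 in WT_PBS and 16.6, 27.8 and 18.2 in KO_PBS (9.51-fold, adjusted p = 3.5e-05). S100a4, a calcium-binding partner of annexins that is also expressed by macrophages and fibroblasts, was 3.46, 6.15 and 5.44 in WT_PBS and 42.4, 40.1 and 34.9 in KO_PBS (7.33-fold, adjusted p = 2.7e-05). All 3 calls held under all 19 alternatives. The macrophage markers described below rose too, and their part in the S100a4 value was not tested. Dysf, dysferlin itself, was 83.9, 65.9 and 72.3 in WT_PBS and 101, 118 and 104 in KO_PBS (1.46-fold, adjusted p = 0.0106), and was named after its values were seen. Capn3, a muscle calpain, was 112, 120.5 and 129 in WT_PBS and 79.95, 90.03 and 95.1 in KO_PBS (log2 fold change -0.45, adjusted p = 0.0117), and its call was lost without scaling factors or without WT_PBS library 3.

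In the dystrophin complex and the laminin receptors 9 of 26 genes rose and 1 fell (median log2 fold change 0.29). Lama2, the laminin chain of the muscle basement membrane, was 27.5, 31.9 and 25.7 in WT_PBS and 46.4, 58.6 and 47.95 in KO_PBS (1.78-fold, adjusted p = 0.00122). Itgb1, the integrin beta chain that binds it, was 188, 159.6 and 161 in WT_PBS and 259.7, 256 and 245 in KO_PBS (1.499-fold, adjusted p = 0.00261). Sspn, sarcospan, was 53.1, 62.1 and 63.3 in WT_PBS and 83.2, 94.9 and 90.97 in KO_PBS (1.505-fold, adjusted p = 0.00502). The 3 genes separated the groups with folds of less than 2. Collagen and matrix genes rose in 6 of 35 cases and fell in 0, and Col1a1, a major fibrillar collagen looked up after its values were seen, overlapped at 30.3, 47.9 and 45.04 across WT_PBS and 22.4, 70.3 and 38.8 across KO_PBS (adjusted p = 0.964).

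Factors that muscle secretes rose in 9 of 31 cases and fell in 4. Gdf15, a stress-induced hormone that lowers appetite, was 0.377, 0.878 and 1.15 in WT_PBS and 9.23, 4.29 and 8.596 in KO_PBS (5.97-fold, adjusted p = 0.00225). Timp1, an inhibitor of matrix proteases, was 0.583, 1.02 and 0.481 in WT_PBS and 7.73, 16.4 and 6.94 in KO_PBS (8.62-fold, adjusted p = 3.0e-04). Cxcl10, an interferon-induced chemokine, was 0.446, 1.3 and 1.22 in WT_PBS and 6.36, 14.5 and 20 in KO_PBS (8.97-fold, adjusted p = 8.7e-04). Low wild-type levels and wide spread within KO_PBS were common to these 3 genes, and their groups did not overlap. Tgfb1, a growth factor of fibrosis and immune control, was 3.05, 4.67 and 3.59 in WT_PBS and 10.5, 17.1 and 10.7 in KO_PBS (3.06-fold, adjusted p = 0.00222). Vegfa, which maintains muscle capillaries, fell by 0.70 on the log2 scale from 183, 242 and 209.6 to 140, 133 and 116 (adjusted p = 0.0105). Fgf21, another stress hormone, was at or under 3 reads in every WT_PBS library, so no fold is given. Its values were 0.171, 0.176 and 0.03701 in WT_PBS and 1.73, 2.64 and 6.67 in KO_PBS.

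Genes of muscle wasting showed no common movement, with 6 rises and 3 falls of 30. Eda2r, a receptor of the TNF receptor family, was 16.4, 12.1 and 10.6 in WT_PBS and 48.8, 68.3 and 72.95 in KO_PBS (4.73-fold, adjusted p = 3.5e-04). Sqstm1, the autophagy receptor p62, was 795, 557 and 637 in WT_PBS and 1491, 1224 and 1277 in KO_PBS (2.02-fold, adjusted p = 0.001). Both were higher in every KO_PBS library. The ubiquitin ligases Trim63 and Fbxo32, the best known markers of atrophy and looked up after their values were seen, overlapped widely: Trim63 was 1170, 198 and 468 in WT_PBS and 907, 357 and 389 in KO_PBS (adjusted p = 0.943), and Fbxo32 was 711, 273 and 409 in WT_PBS and 652, 356 and 485 in KO_PBS (adjusted p = 0.786). Library 1 of each group was its highest for both ligases. Myogenic factors rose in 4 of 21 cases and fell in 1. Myog, the transcription factor of differentiating myoblasts and denervated fibres, was 2.57, 5.38 and 3.74 in WT_PBS and 13.01, 7.37 and 12.5 in KO_PBS (2.62-fold, adjusted p = 0.0086).

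Synthesis of amino acids and one-carbon units, many steps of which the transcription factor ATF4 is known to control, held frequent rises. Of 27 genes 15 rose and 3 fell (median log2 fold change 0.87), and 9 of the rises held under all 19 alternatives. Mthfd2, the mitochondrial one-carbon enzyme, was 10.4, 5.45 and 5.81 in WT_PBS and 53.7, 26.2 and 66.9 in KO_PBS (6.19-fold, adjusted p = 0.00134). Asns, asparagine synthetase, was 4.22, 3.83 and 2.48 in WT_PBS and 38.8, 13.7 and 32.4 in KO_PBS (6.703-fold, adjusted p = 0.00487). Slc7a1, a carrier of cationic amino acids, was 1.54, 2.002 and 1.37 in WT_PBS and 8.25, 4.85 and 6.11 in KO_PBS (3.19-fold, adjusted p = 0.00362). KO_PBS library 2 was the lowest of its group for all 3 genes and still above every WT_PBS library. Gpt2, the mitochondrial alanine aminotransferase, fell by 1.81 on the log2 scale from 305, 146 and 204 to 80.5, 41.02 and 62.6 (adjusted p = 0.00242), and Mthfd1, the cytosolic one-carbon enzyme, fell by 0.57 from 38.5, 41.8 and 45.6 to 29.2, 26.1 and 28.6 (adjusted p = 0.00225), a call lost without scaling factors.

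The wider list of the integrated stress response held 4 rises and 2 falls of 22. Trib3, a pseudokinase induced by ATF4, was 0.857, 1.09 and 0.925 in WT_PBS and 15.8, 7.37 and 27.1 in KO_PBS (10.5-fold, adjusted p = 9.3e-04). Eif4ebp1, which represses cap-dependent translation, was 73.2, 34.6 and 53.4 in WT_PBS and 188, 149.6 and 124 in KO_PBS (2.94-fold, adjusted p = 0.00203). Both held under all 19 alternatives. Among 20 aminoacyl-tRNA synthetases, also known targets of ATF4, 3 rose and 3 fell, or 11 and 0 without scaling factors.

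ATF4 binds the composite element CARE, searched as TGATGNAA on both strands. These letters occurred in 2.75% of the 9748 genes with a promoter window and in 5 of the 21 amino acid genes with one: Asns, Pycr1, Slc7a11 and Slc1a4, which rose, and Got1. In the integrated stress response list they occurred in 5 of 19, of which Trib3 rose. Letters of other elements were searched in other lists in the same way. TGACNNNGC (ARE) occurred in 17.3% of genes with a window and in 8 of 19 NRF2 targets, described below. TGCACNC or TGCGCNC (MRE) occurred in 40.5% and in 9 of 16 metal-binding genes. TCACNCCAC (SRE) occurred in 1.42%, in 1 of 17 sterol and fatty acid genes and in 0 of the 5 of these that fell. The sequences below were printed because they belong to genes that rose, with matches in capitals on either strand. They are read on the gene's strand, minus in all 4 cases, from chr3:50443614-50443733, chr6:7693214-7693243, chr11:120643833-120643862 and chr2:152344028-152344057. The call of Pycr1, a proline synthesis enzyme, was lost without WT_PBS library 2 or 3 or KO_PBS library 3, and that of Slc1a4, a neutral amino acid carrier, without WT_PBS library 1 or 2, KO_PBS library 1 or 2 or with quantile normalization. Slc7a11, the cystine carrier, holds 2 matches and was at or under 3 reads in every WT_PBS library, at 0.2399, 0.105 and 0.185 there and 2.25, 1.93 and 4.74 in KO_PBS.
Slc7a11: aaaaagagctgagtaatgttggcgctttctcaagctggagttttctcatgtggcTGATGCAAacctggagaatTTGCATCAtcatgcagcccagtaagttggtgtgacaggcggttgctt
Asns: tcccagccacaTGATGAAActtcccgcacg
Pycr1: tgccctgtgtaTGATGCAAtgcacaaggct
Trib3: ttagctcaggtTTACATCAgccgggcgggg

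Targets of NRF2, the regulator of the antioxidant response, rose in 11 of 24 cases and fell in 2 (median log2 fold change 0.45). Nqo1, a quinone reductase, was 27.2, 15.98 and 21.9 in WT_PBS and 57.05, 63.5 and 81.9 in KO_PBS (3.09-fold, adjusted p = 3.5e-04). Txn1, thioredoxin, was 48.02, 45.99 and 44.9 in WT_PBS and 112, 99.4 and 101 in KO_PBS (2.23-fold, adjusted p = 6.0e-05), and Txnrd1, its reductase, was 70.8, 69.7 and 65.5 in WT_PBS and 146, 149.5 and 116 in KO_PBS (1.98-fold, adjusted p = 9.9e-04). Pgd, an enzyme of the pentose phosphate pathway that makes NADPH, was 28.3, 23.6 and 21.9 in WT_PBS and 85.3, 57.1 and 85.7 in KO_PBS (3.02-fold, adjusted p = 5.2e-04). These 4 genes separated the groups and held under all 19 alternatives. Another source of NADPH on the same list went down: Me1, malic enzyme, fell by 1.03 on the log2 scale from 375, 291 and 328 to 159, 163 and 162 (adjusted p = 2.8e-04).

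Chaperones of the endoplasmic reticulum rose in 10 of 20 cases and fell in 0, and cytosolic heat shock proteins rose in 5 of 22 and fell in 1. Canx, the lectin chaperone calnexin, was 71.4, 73.4 and 71.4 in WT_PBS and 133, 122 and 119 in KO_PBS (1.73-fold, adjusted p = 3.0e-04). Xbp1, the transcription factor of the unfolded protein response, was 65.2, 45.1 and 48.97 in WT_PBS and 90.5, 106 and 102 in KO_PBS (1.88-fold, adjusted p = 0.0012). Hspb7, a small heat shock protein of muscle, was 143, 319 and 282 in WT_PBS and 1091, 1107 and 789 in KO_PBS (4.19-fold, adjusted p = 8.7e-04). None of the 3 overlapped between groups.

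Metal-binding genes held the largest rise of the named genes in Mt3, with 4 rises and 2 falls of 20. The metallothionein Mt2 was 52.7, 5.66 and 18.2 in WT_PBS and 292, 195 and 108 in KO_PBS (10.04-fold, adjusted p = 0.00526), and Mt1 was 72.6, 14.3 and 24.9 in WT_PBS and 264, 132 and 67.8 in KO_PBS (4.43-fold, adjusted p = 0.0262). Mt1 overlapped between groups, since WT_PBS library 1 was above KO_PBS library 3, and its call was lost without WT_PBS library 2 or 3 or KO_PBS library 1 or 2. Tfrc, the transferrin receptor that imports iron, fell by 1.03 on the log2 scale from 55.3, 72.2 and 60.1 to 23.6, 28.7 and 40.8 (adjusted p = 0.00437). Slc40a1, the iron exporter ferroportin, fell by 0.72 from 31.02, 33.97 and 34.98 to 20.6, 18.1 and 21.4 (adjusted p = 8.4e-04). Import and export genes of iron were thus both lower.

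Among 27 targets of p53 and cell cycle inhibitors 7 rose and 2 fell. Perp, a membrane protein of the p53 response, was 2.297, 1.23 and 1.07 in WT_PBS and 8.97, 16.7 and 7.68 in KO_PBS (5.59-fold, adjusted p = 8.6e-04), and Bax, which opens the mitochondrial outer membrane in apoptosis, was 15.5, 16.3 and 16.8 in WT_PBS and 27.04, 24.3 and 23.03 in KO_PBS (1.51-fold, adjusted p = 0.00277). Ccng1, another p53 target, fell by 0.78 on the log2 scale from 703, 807 and 861 to 439, 420 and 521 (adjusted p = 0.00107). Imprinted growth genes were called in both directions, 5 up and 3 down of 16. H19, a noncoding RNA of growing muscle expressed from the maternal allele, was 181, 471 and 371 in WT_PBS and 1489, 1150 and 1151 in KO_PBS (3.96-fold, adjusted p = 0.00159), and Igf2, its paternally expressed neighbour, was 9.91, 11.5 and 12.4 in WT_PBS and 22.8, 15.2 and 20.6 in KO_PBS (1.69-fold, adjusted p = 0.0069). Peg3, a zinc finger protein, was 8.74, 11.6 and 9.29 in WT_PBS and 46.4, 38.3 and 28.6 in KO_PBS (3.64-fold, adjusted p = 7.8e-04). Meg3 and Rian, noncoding RNAs of one cluster on chromosome 12, fell by 1.16 and 0.86 on the log2 scale (adjusted p = 0.00372 and 0.00762). Meg3 was 15.3, 9.03 and 10.2 in WT_PBS and 5.06, 4.06 and 5.19 in KO_PBS, with no overlap.

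Polyamine genes held 4 falls and 2 rises of 14, or 4 and 6 without scaling factors. Amd1, the decarboxylase that supplies the aminopropyl group, was 1579, 1160 and 1405 in WT_PBS and 213, 298 and 256 in KO_PBS, a fall by 2.43 on the log2 scale (adjusted p = 7.8e-05). Smox, which oxidises spermine, fell by 2.09 from 613, 296 and 328 to 93.2, 97.4 and 84.1 (adjusted p = 0.0012), and Sms, spermine synthase, fell by 0.94 from 209, 156 and 168 to 95.1, 92.2 and 87.6 (adjusted p = 8.6e-04). Every KO_PBS library was below every WT_PBS library for all 3. Amd1 has a near-identical copy in the mouse genome, so how its reads were divided is uncertain.

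In sterol and fatty acid synthesis 9 of 25 genes fell and 0 rose (median log2 fold change -0.38, and 6 falls and 2 rises without scaling factors). Scd2, a fatty acid desaturase, was 65.5, 69.5 and 82.3 in WT_PBS and 15.1, 14.9 and 21.9 in KO_PBS (log2 fold change -2.05, adjusted p = 1.1e-04). Srebf1, the transcription factor of fatty acid synthesis, fell by 1.54 from 115, 90.2 and 113 to 30.8, 33.5 and 45.7 (adjusted p = 2.2e-04). Fdft1, squalene synthase, fell by 0.79 from 64.8, 73.7 and 84.8 to 47.7, 38.5 and 41.9 (adjusted p = 0.00257). Each separated the groups and held under all 19 alternatives. Fasn, fatty acid synthase, was 304, 119.8 and 67.99 in WT_PBS and 45.6, 16.3 and 21.6 in KO_PBS (log2 fold change -2.40, adjusted p = 0.0341), with WT_PBS library 1 far above the others, and its call was lost without WT_PBS library 1 or 2 or KO_PBS library 2 or 3. Adipoq, the adipocyte hormone looked up for comparison after its values were seen, was also highest in WT_PBS library 1, at 78.2, 23.4 and 13.4 across WT_PBS and 17.1, 24.7 and 9.699 across KO_PBS (adjusted p = 0.413), and the part of adipocyte RNA in the Fasn value was not tested.

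In glucose uptake and insulin signalling 4 of 26 genes rose and 6 fell, or 5 and 2 without scaling factors. Slc2a1, the glucose transporter of most tissues, was 7.85, 6.43 and 8.62 in WT_PBS and 28.3, 35.1 and 19.6 in KO_PBS (3.39-fold, adjusted p = 4.5e-04), and Slc2a4, the insulin-responsive transporter of muscle and fat, was 576, 582 and 552 in WT_PBS and 445, 334 and 368 in KO_PBS (log2 fold change -0.58, adjusted p = 0.00431), a call lost without scaling factors. Hk1, the hexokinase of most tissues, was 7.92, 6.22 and 6.995 in WT_PBS and 21.8, 21.7 and 24.1 in KO_PBS (3.07-fold, adjusted p = 5.2e-05). Hk2, the muscle hexokinase named after its values were seen, overlapped at 273, 238 and 284 across WT_PBS and 266, 209 and 202 across KO_PBS (adjusted p = 0.169). Of 18 glycolytic enzymes 10 fell and 0 rose (median log2 fold change -0.46). Of these falls 4 held under all 19 alternatives, and 5 fell with quantile normalization. Gpd1, the glycerol-phosphate dehydrogenase that regenerates NAD, fell by 1.47 on the log2 scale from 669, 542 and 633 to 213, 199 and 256 (adjusted p = 6.2e-05). Tpi1, triose-phosphate isomerase, fell by 0.79 from 2942, 2989 and 3170 to 1829, 1716 and 1711 (adjusted p = 7.8e-04), a call lost with quantile normalization.

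Purine and creatine genes, which buffer ATP, fell in 6 of 15 cases and rose in 2, or 4 and 4 without scaling factors. Ampd1, the AMP deaminase of fast muscle, fell by 1.0 on the log2 scale from 682, 672 and 746 in WT_PBS to 261, 381 and 429.8 in KO_PBS (adjusted p = 0.00648), while Ampd3, its counterpart in other tissues, was 11.1, 8.26 and 10.7 in WT_PBS and 27.1, 31.8 and 28.3 in KO_PBS (2.82-fold, adjusted p = 2.9e-04). Both held under all 19 alternatives. Mitochondrially encoded mRNAs fell in 12 of 13 cases (median log2 fold change -0.86). Without scaling factors 7 fell, and with quantile normalization 3 fell with a median of -0.26. mt-Nd5, a subunit of complex I, was 4328, 4896 and 5168 in WT_PBS and 2580, 3007 and 2736 in KO_PBS (log2 fold change -0.79, adjusted p = 0.00162), with no overlap, and its call was lost with quantile normalization. Nuclear genes of mitochondrial biogenesis were called in 5 of 26 cases, 2 up and 3 down, or 6 and 0 without scaling factors. Among the rises, Esrrg, a nuclear receptor of oxidative fibres, was 5.86, 15.1 and 8.11 in WT_PBS and 28.9, 31.01 and 22.9 in KO_PBS (2.94-fold, adjusted p = 0.00921). Ppargc1a, the best known coactivator of this programme and named after its values were seen, overlapped at 21.7, 20.3 and 28.5 across WT_PBS and 53.01, 12.5 and 12.6 across KO_PBS (adjusted p = 0.811), with KO_PBS library 1 above the rest.

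**Figure D4:**
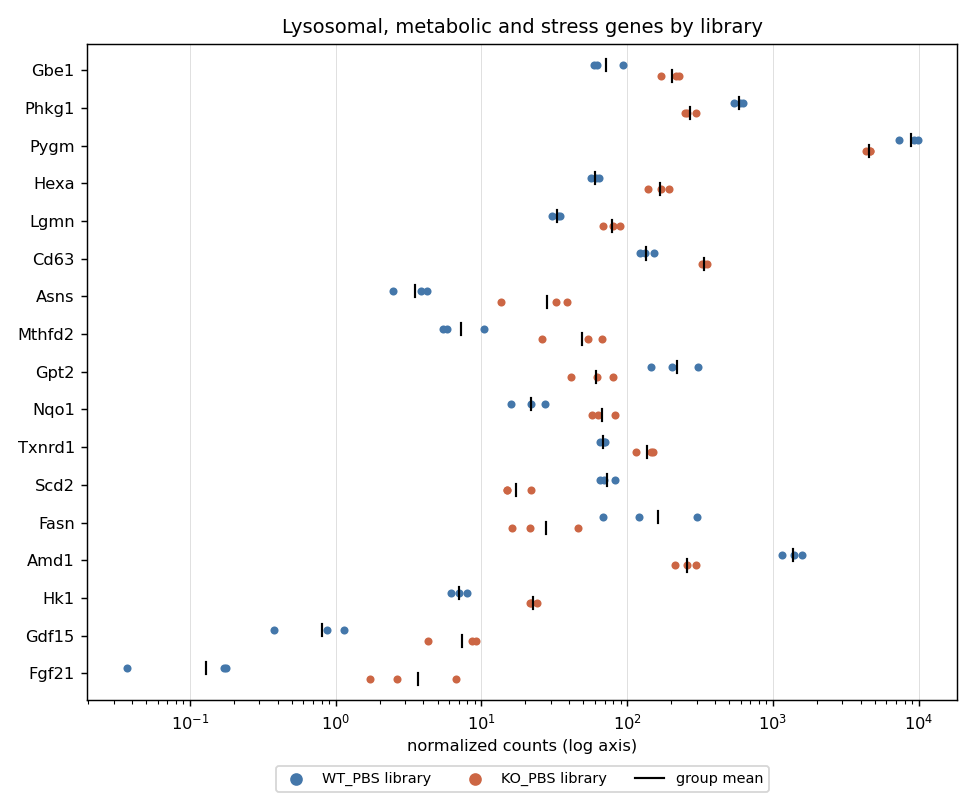
Normalized counts on a log axis in each WT_PBS and KO_PBS library for genes of glycogen, lysosome, amino acid synthesis, antioxidant response, lipid synthesis, polyamines, glucose and stress hormones, with a bar at each group mean. Gbe1, Asns and Nqo1 lie higher and Amd1 and Scd2 lower in every KO_PBS library.

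Markers of cell types other than fibres were counted as well. Macrophage markers rose in 7 of 20 cases and fell in 0 (median log2 fold change 0.93), and their summed normalized counts were 128.1 to 203.7 in WT_PBS and 373.3 to 502.5 in KO_PBS. Cd68, a lysosomal glycoprotein of macrophages, was 4.42, 2.42 and 2.702 in WT_PBS and 12.2, 14.8 and 13.01 in KO_PBS (3.84-fold, adjusted p = 3.8e-04), and Mpeg1, a pore-forming protein of macrophages, was 2.85, 5.45 and 3.37 in WT_PBS and 13.2, 22.3 and 19.9 in KO_PBS (4.36-fold, adjusted p = 0.00116). The defining surface marker Adgre1, named after its values were seen, was 3.94, 5.02 and 1.89 in WT_PBS and 5.51, 9.02 and 7.49 in KO_PBS (adjusted p = 0.0871). Some of the list, such as Gpnmb and Lgals3, are also lysosomal or stress genes of fibres, and the part of macrophage RNA in the lysosomal rises was not tested.

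Endothelial markers fell in 5 of 13 cases and rose in 0 (median log2 fold change -0.51, and -0.19 without scaling factors, where none was called). Flt1, a receptor of Vegfa, was 37.8, 33.7 and 28.98 in WT_PBS and 27.6, 20.3 and 21.8 in KO_PBS (log2 fold change -0.52, adjusted p = 0.0204), and its call was lost without WT_PBS library 1 or 2 or KO_PBS library 2 or 3. Fibroblast markers rose in 2 of 12 cases. None was called of the 8 Schwann cell, 7 tendon and cartilage, 5 neutrophil and mast cell and 1 hepatocyte markers tested, and the other markers of these lists are not analysed here. Erythroid markers had a median log2 fold change of -1.53, with 1 fall of 6 tested, and their summed normalized counts were 277.2 to 567 in WT_PBS and 89.52 to 238.6 in KO_PBS. The fall was that of Bpgm, a red cell enzyme also expressed elsewhere, at 110.1, 106 and 115 across WT_PBS and 59.9, 56.5 and 62.6 across KO_PBS (log2 fold change -0.88, adjusted p = 1.3e-04). The globin Hbb-bs was 139.5, 81.96 and 203 in WT_PBS and 57.1, 13.04 and 76.3 in KO_PBS, without overlap and without a call (adjusted p = 0.109). Adipocyte markers had 1 call, the fall of Lipe. Lymphocyte genes moved apart: Trdc, the constant region of the T cell receptor delta chain, was 0.857, 0.527 and 0.185 in WT_PBS and 9.95, 6.03 and 22.9 in KO_PBS (adjusted p = 0.00109, with 2 reads in 1 WT_PBS library and so no fold), while Cd3e, the signalling chain of all T cell receptors, was 4.35, 8.61 and 11.1 in WT_PBS and 1.01, 2.56 and 4.28 in KO_PBS (log2 fold change -1.51, adjusted p = 0.0434). The Cd3e call was lost without scaling factors, by edgeR, and without WT_PBS library 2 or 3 or KO_PBS library 1 or 2. Only 3 of 15 T and NK cell markers were tested, and the others are not analysed here. Of these 3, Cd3e fell and 1 rose, with a median log2 fold change of 0.79. Trdc is not a member of that list. Ighm, the constant region of immunoglobulin M, was 402, 141 and 213 in WT_PBS and 14.3, 12.96 and 92.3 in KO_PBS (log2 fold change -3.12, adjusted p = 0.019), a call lost by edgeR and without WT_PBS library 1 or 3 or KO_PBS library 1 or 2. It was the only call among the 5 of 11 B and plasma cell markers tested, and the median of these 5 was positive (log2 fold change 0.80). In 2 of these 5 every KO_PBS library was above every WT_PBS library, beside 2710 of all 13089 tested genes. With 5 markers this is a description only.

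Genes that respond to handling of the animal or time of day were measured beside these. Of 21 immediate early genes 7 rose and 1 fell (median log2 fold change -0.02, and 0.28 without scaling factors), and 3 of the rises held under all 19 alternatives. The list averages were 0.05, -0.29 and 0.24 across WT_PBS and 0.46, 0.64 and -0.32 across KO_PBS. KO_PBS library 3 was thus below every WT_PBS library. Egr3, a transcription factor that nerve activity induces, was 0.308, 0.316 and 0.259 in WT_PBS and 1.86, 5.79 and 3.26 in KO_PBS (adjusted p = 0.00215, with 3 or 4 reads in each WT_PBS library and so no fold), and Junb, of the same class, was 14.2, 18.4 and 19.4 in WT_PBS and 52.2, 84.9 and 42.9 in KO_PBS (3.29-fold, adjusted p = 0.00299). Of 18 circadian genes 1 rose and 1 fell: Per2 was 5.31, 2.85 and 4.63 in WT_PBS and 13.01, 8.16 and 8.14 in KO_PBS (2.16-fold, adjusted p = 0.0358), a call lost under several alternatives including without WT_PBS library 2 or 3 and whenever a KO_PBS library was left out, and Hlf was 8.67, 7.62 and 7.44 in WT_PBS and 4.79, 3.27 and 2.25 in KO_PBS (log2 fold change -1.14, adjusted p = 0.0127). The part of time of sampling in these values was not tested.

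**Figure D5:**
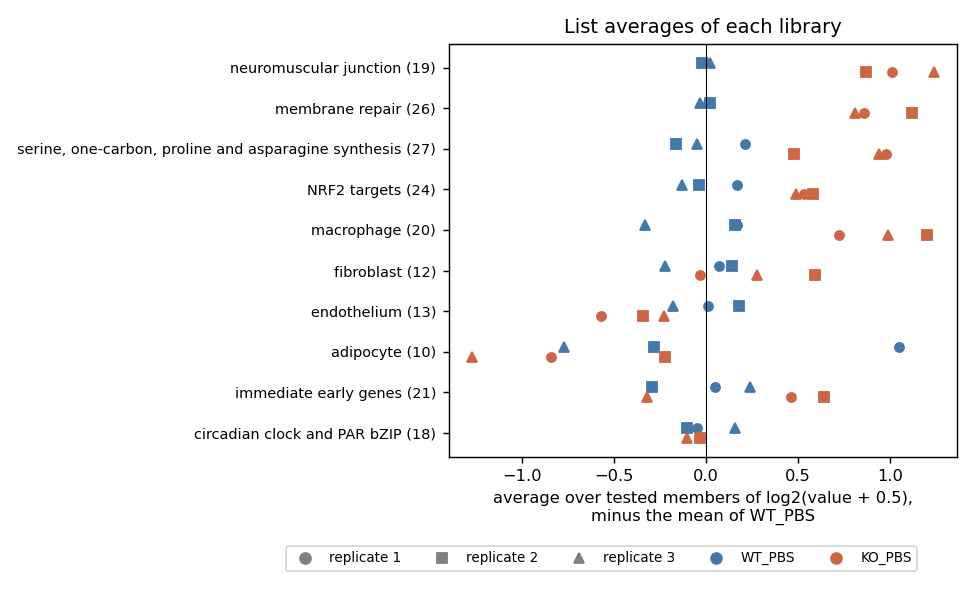
Average of log2 values over the tested members of 10 lists, relative to the WT_PBS mean (x axis), with 1 row per list, colour for the group and symbol shape for the library. Neuromuscular junction, membrane repair and macrophage averages are higher in all 3 KO_PBS libraries than in all 3 WT_PBS libraries.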

How the data were processed

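The authors deposited one table of normalized counts (unit: signal) for 13116 genes in 9 libraries. The submitters' processing notes list the build GRCm38 and the tools RSEM, cutadapt, CASAVA, edgeR and limma, without their roles or versions. The labels name single-end reads of 61 bases. Each value equals (reads + 0.5) divided by an effective library size, so whole reads could be recovered from the deposited signal for 100% of 118044 values (tolerance 1e-06). Recovered totals were 9299156 to 15957106 reads per library in the 6 compared libraries. Column sums were 855538 to 936932 in KO_PBS and 1094352 to 1146212 in WT_PBS, because the authors' scaling factors differ between the groups.

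For the main test, limma 3.58.1 (R 4.3.3) was fitted to log2(value + 0.5) with an intensity trend over 9 libraries in 3 groups (residual df 6). A gene needed a value of 1 in 3 or more libraries, which kept 13089 and removed 27, and a Benjamini-Hochberg adjusted p under 0.05 was called. On the recovered reads, edgeR 4.0.16 (quasi-likelihood) called 2845 genes and DESeq2 1.42.0 called 3030. The fit was tested on simulated data. Named genes were the 15 largest rises and falls and the 10 largest gains and losses in counts, all from called genes. Rises and falls were ranked only where the groups did not overlap and the higher group mean was 5 or more. Predicted genes (Gm, Rik or blank names) were left out of that ranking. Also named were called genes with the 4 lowest p-values per list and direction, and called genes within 5 Mb of Gaa. Some genes this rule names are not reported here, and genes named otherwise are marked where they appear. Members and lists were chosen with earlier results of these data known. Replicate numbers follow accession order only. Alternatives were pseudocounts, filters, scaling, other tools and leaving out each library.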

Additional observations from a re-analysis of the deposited data

How the results depend on the processing

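Of 2867 called genes, 1234 lost their call in none of the 19 alternatives that tested them. A gene that an alternative did not test was not counted as lost there. Without scaling factors 4984 genes were called, 4466 risen and 518 fallen, since the KO_PBS libraries have larger factors. Leaving out each library gave 1744 to 2847 calls (1744 without WT_PBS library 3 and 1844 without KO_PBS library 2), 909 to 1446 risen (937 without KO_PBS library 2) and 835 to 1401 fallen (907 without KO_PBS library 2). Calls in lists ranged from 252 to 453. Of 290 called genes named by rule, 182 held under all alternatives, 58 were lost without scaling factors, 26 with quantile normalization and 22 in a fit on the 6 libraries alone. With quantile normalization 6 called falls among these named genes became positive log2 differences, none called: Tpm1 0.0935, Gm10925 0.0827, Tnnt3 0.213, mt-Nd4 0.0247, Tnni2 0.0700 and Ttn 0.0681. Only genes named by rule were examined for such turns. Of those not called, the sign of the log2 difference depended on which library was left out for Mcpt4 (-0.351 to 0.164), Tpsb2 (-0.123 to 0.740), Pmp22 (-0.113 to 0.112) and Thbs4 (-0.552 to 0.0289). Without scaling factors Mcpt4 was 0.179 and Thbs4 0.0923. The cause of these turns was not tested. No paired analysis was possible because the labels give no replicate numbers that tie WT_PBS to KO_PBS libraries. Genes with a library at or under 3 reads (0.196 to 0.276 normalized counts) are given without a fold.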

Other observations

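Shares of called genes differed between chromosomes. On the X chromosome 60 of 401 tested genes rose (15%) and 30 fell (7.48%), beside 10.9% and 11% of all tested genes. Of 15 tested genes of the mitochondrial chromosome 12 fell. Of 182 genes annotated as antisense 7 rose (3.85%) and 19 fell (10.4%), so the share that fell was near that of all tested genes. Without stated strand counting their reads cannot be told apart from those of the genes they overlap. Card14, 22314 bases from Gaa, was 1.06, 0.918 and 1.41 normalized counts in the 3 KO_secGAA libraries, beside 11.3, 10.8 and 6.67 in KO_PBS and 0.377, 0.176 and 0.703 in WT_PBS. Further along the same region of chromosome 11, Tmc6, a relative of mechanosensory channel genes, was 4.22, 2.35 and 2.41 in WT_PBS and 12.7, 14.8 and 13 in KO_PBS (log2 fold change 2.04, adjusted p = 2.6e-04 in limma).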
